A study of Mus musculus with 12 samples.

Results

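Liver RNA of mice fed a high-fat diet containing HYA was compared with that of mice fed a normal diet (ND), to determine how much of the hepatic response to the high-fat diet was still present when HYA was given with it. HYA is a hydroxylated fatty acid made by gut bacteria from linoleic acid (LA), the main dietary omega-6 fatty acid. All 12 mice were male C57BL/6J mice whose feeding began at 5 weeks of age and lasted 26 weeks, with 3 mice per group. ND-fed mice received CE-2 chow, control mice received the high-fat diet HFD32 alone, HYA-treated mice received the same high-fat diet with 1% HYA, and LA-treated mice received it with 1% LA. The comparison is between the 3 HYA-treated and the 3 ND-fed mice, which differed in both the diet and the supplement, so that these cannot be told apart by the HYA and ND values alone. Control and LA-treated mice therefore serve as reference points, since they ate the same fat without HYA.

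The 11083 genes whose mean over the 12 mice reached 1 FPKM (fragments per kilobase of gene, scaled to the depth of the mouse) were included, out of 54532 genes listed. Of the listed genes, 28487 were at 0 in every mouse. Values were compared as log2(FPKM + 1) with limma, and log2 fold changes below are differences on that scale, which understate the change of genes near or below 1 FPKM. A gene is described as called when its Benjamini-Hochberg adjusted p-value was under 0.05 over all 11083 genes and its log2 fold change was above 1 or under -1. The p-values set each difference against the spread of mice within groups. That spread was pooled over all 12 mice, 3 per group, and moderated across genes by limma. Each mouse had 17169064 to 25220880 fragments on genes, namely 18355799 to 25220880 for HYA-treated and 17169064 to 19595277 for ND-fed mice. Because whole liver was sequenced, fewer cells of a type and less RNA per cell cannot be told apart.

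A liver that receives excess fat stores triglyceride in droplets coated by perilipins and CIDE proteins, and fatty acids that reach the nucleus activate PPAR receptors, which switch on genes for oxidation and storage. Glucose and insulin act through ChREBP and SREBP on genes for fatty acid and sterol synthesis. In male mice, pulses of growth hormone maintain a hepatocyte program that includes major urinary proteins and certain steroid and drug metabolising enzymes, and this program is known to weaken in obesity. Prolonged overload injures hepatocytes, recruits macrophages and activates stellate cells, which then secrete collagen.

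A part of the response to the high-fat diet was still present in HYA-treated mice. Compared with ND-fed mice, HYA-treated mice had 141 genes called higher (1.27% of those tested) and 68 called lower (0.614%). Protein-coding genes made up 116 of the former and 53 of the latter. The log2 fold change exceeded 2 for 27 genes and was below -2 for 8. By the adjusted p-value alone, 966 genes were higher (8.72%) and 870 lower (7.85%), so most differences were smaller than 2-fold. For 1839 genes (16.6%) every HYA-treated mouse was above every ND-fed mouse, and for 2143 (19.3%) every HYA-treated mouse was below. The median log2 fold change over all genes was -0.02. Higher genes formed 67.5% of the calls, and 78.8% when the FPKM of these 11083 genes were rescaled to TPM, which sums to the same total in every mouse and which moved the median of all genes from -0.02 to 0.08 on the log2 scale.

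**Figure D1:**
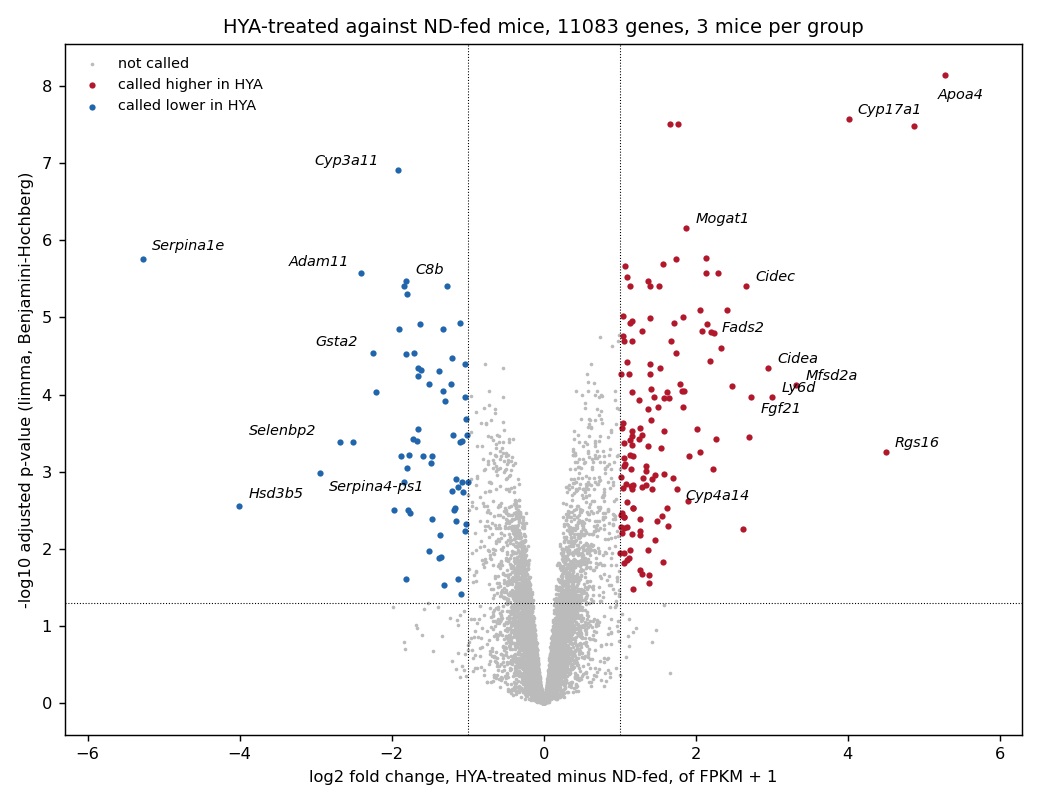
Log2 fold change of FPKM + 1 in HYA-treated minus ND-fed mice (x axis) against -log10 of the limma adjusted p-value (y axis) for each of the 11083 genes, with dotted lines at the thresholds. The 141 genes called higher (red) reach 5.28 for *Apoa4*, and the 68 called lower (blue) reach -5.28 for *Serpina1e*.

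The response to the high-fat diet alone comprised 249 genes called higher (2.25%) and 181 called lower (1.63%) in control mice relative to ND. Of the 249 genes, 129 were also called higher in HYA-treated than in ND-fed mice and 214 passed the adjusted p-value alone. Of the 181 genes, 63 were also called lower and 126 passed the adjusted p-value alone. The same ND-fed mice stand in both comparisons and the genes were chosen for their values in control mice, so these counts are a description. Over the 249 genes the median log2 fold change against ND was 1.04 in HYA-treated, 1.39 in control and 1.34 in LA-treated mice, the middle 50% of the genes in HYA-treated mice lying between 0.79 and 1.42. Over the 181 genes it was -0.89 in HYA-treated, -1.46 in control and -1.38 in LA-treated mice.

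The 3 HYA-treated mice lay close together in this response. Relative to the ND mean, the median over the 249 genes was 1.08, 1.02 and 1.10 in the HYA-treated mice, and 1.45, 1.25 and 1.31 in the LA-treated mice. Over the 181 genes the mice were at -0.92, -0.87 and -0.91 with HYA and at -1.50, -1.25 and -1.42 with LA. Every HYA-treated mouse was thus nearer to the ND mean than every LA-treated mouse in both directions. The contrast that chose these genes compared control with ND, although all 12 mice entered the filter and the estimate of spread. Between HYA and LA, 199 of the 249 genes were lower in HYA-treated mice with a median log2 difference of -0.37. Of the 181 genes, 157 were higher with HYA than with LA, with a median of 0.46. Gene by gene, HYA against LA passed both thresholds for 9 of the 249 genes and for 3 of the 181, where the same contrast called 0.0812% of all tested genes lower and 0.0271% higher.

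Genes of lipid storage were among the most different from ND. *Apoa4* (chr9:46240696-46243459, GRCm38), which encodes an apolipoprotein of triglyceride-rich lipoproteins, had an mRNA abundance of 55.3, 53.1 and 62.1 FPKM in ND-fed mice and of 2334, 1945 and 2458 FPKM in HYA-treated mice. It was at 3946, 3121 and 3996 FPKM in control mice and at 3487, 3179 and 2578 FPKM in LA-treated mice. All HYA-treated mice were far above all ND-fed mice and below the other mice on the high-fat diet. On the log2 scale the change of HYA against ND was 5.28 ± 0.14 (SE, limma, adjusted p = 7.34e-09), and that of HYA against control was -0.71 (limma, adjusted p = 0.030). *Gm10680* overlaps *Apoa4* on the opposite strand, and reads of the pair cannot be assigned with certainty without strand. The other apolipoprotein and lipoprotein genes moved little as a group, with 2 of 24 called higher (the second being *Pltp*, the phospholipid transfer protein, at 1.37), 5 lower by the adjusted p-value alone, and a median of -0.12.

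All 17 tested genes of lipid droplet coat and lipolysis had a log2 fold change above 0, with a median of 0.55 against 0.67 in control mice. Of them 5 were called higher, 12 passed the adjusted p-value alone, and 15 had HYA ranges wholly above ND, as did 16.6% of all genes. The 17 include 2 genes with an ND mean under 1 FPKM, which passed the filter through the other groups. *Cidec*, which enlarges lipid droplets, was at 8.16, 10.6 and 6.90 FPKM in ND-fed mice, 54.9, 52.8 and 70.4 FPKM in HYA-treated mice and 104, 81.8 and 71.9 FPKM in control mice. LA-treated mice were at 78.2, 68.4 and 78.3 FPKM. HYA-treated mice lay above every ND-fed mouse and below every control mouse but overlapped LA-treated mice. The estimated log2 fold change against ND was 2.67 ± 0.17 (SE, limma, adjusted p = 3.96e-06), whereas the difference from control, -0.52, did not pass the test (limma, adjusted p = 0.12). *Cidea*, a related droplet protein typical of brown fat, was higher by 2.96, and *Pnpla3*, a lipase-like droplet protein, by 2.48. *Plin2*, the main coat protein of hepatocyte droplets, averaged 143 FPKM in ND-fed, 301 FPKM in HYA-treated and 356 FPKM in control mice, a log2 fold change of 1.07 against ND (limma, adjusted p = 2.18e-06).

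Lipid uptake and esterification contributed 6 called genes of 19, with 10 higher by the adjusted p-value alone, a median of 0.52 and a median of 0.63 in control mice. Among the 19, 1 had an ND mean under 1 FPKM. *Mogat1*, which makes diacylglycerol from monoacylglycerol, was at 1.13, 1.25 and 1.07 FPKM in ND-fed mice, 6.16, 6.48 and 8.23 FPKM in HYA-treated mice and 10.2, 9.46 and 9.23 FPKM in control mice. The 3 groups did not overlap. Its log2 fold change against ND was 1.88 ± 0.09 (SE, limma, adjusted p = 7.03e-07), and HYA-treated mice were lower than control mice by 0.43 on the log2 scale and lower than LA-treated mice by 0.51 (limma, adjusted p = 0.037 and 0.038). *Fabp2*, a fatty acid carrier best known from the intestine, behaved otherwise, with 193, 185 and 195 FPKM in HYA-treated mice, each above the 156 to 183 FPKM of control mice and the 59.5 to 75.6 FPKM of ND-fed mice. LA-treated mice, at 162, 190 and 167 FPKM, overlapped HYA-treated mice. The log2 difference of *Fabp2* between HYA and control was 0.20 and did not pass the test (limma, adjusted p = 0.299). The fatty acid receptor *Cd36* was higher than in ND-fed mice by 1.40, and the phosphatidate phosphatases *Lpin1* and *Lpin2* by 1.38 and 1.06.

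De novo lipogenesis and fatty acid desaturation remained above ND in HYA-treated mice. Of 18 genes 6 were called higher and 13 passed the adjusted p-value alone, with a median of 0.93 in HYA-treated and 1.08 in control mice. *Fads2*, the desaturase that starts the conversion of linoleic acid into longer polyunsaturated fatty acids, was at 215, 235 and 223 FPKM in ND-fed mice, 852, 1062 and 1230 FPKM in HYA-treated mice and 1118, 1284 and 839 FPKM in control mice. The HYA and control ranges overlapped, and both lay above ND. Against ND the log2 fold change was 2.20 ± 0.17 (SE, limma, adjusted p = 1.55e-05), and against control it was -0.04 with a 95% confidence interval of -0.41 to 0.33. The other desaturase *Fads1* was higher than in ND-fed mice by 1.57, the elongase *Elovl5* by 1.72, the acetyl-CoA carboxylase *Acacb* by 1.40, and *Me1*, which supplies NADPH, by 1.02. *Fasn*, the fatty acid synthase, was higher by 0.97 (limma, adjusted p = 0.00585), just short of the fold threshold. Transcripts of the regulators did not move with them, as *Mlxipl*, which encodes ChREBP, was lower than in ND-fed mice, at -0.52 on the log2 scale (limma, adjusted p = 0.00325) and *Srebf1* was at -0.28 (limma, adjusted p = 0.501).

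Cholesterol synthesis had a higher median in HYA-treated than in control mice, 0.66 against 0.49 over 24 genes. All 24 were above 0, 17 passed the adjusted p-value alone and 3 were called. In 20 every HYA-treated mouse exceeded every ND-fed mouse, as in 16.6% of all genes. None of the 24 passed the adjusted p-value in HYA against control, where 1.57% of all genes were higher and 1.23% lower. *Sqle*, the epoxidase that commits squalene to sterols, was at 2.99, 4.12 and 3.70 FPKM in ND-fed mice, 15.4, 13.6 and 9.64 FPKM in HYA-treated mice and 14.8, 10.9 and 13.5 FPKM in control mice. HYA and control mice overlapped and both exceeded ND, with a log2 fold change of HYA against ND of 1.58 ± 0.18 (SE, limma, adjusted p = 0.000296). The mevalonate pathway enzymes *Mvd* and *Fdps* were called at 1.43 and 1.05, while *Hmgcs1*, an early enzyme of the pathway, was at 0.94 (limma, adjusted p = 0.00914).

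Promoters of this group are shown because its genes moved together and are textbook targets of SREBP, which binds near a CCAAT box. Sequences are those of RefSeq on GRCm38.p6, read 5′ to 3′ on the strand of the gene, and positions count back from the transcription start. In the window from 250 bases before to 50 after the start, RefSeq gave 19 promoters for 16 of the 24 genes, and both strands were searched. The letters CCAAT stood in 16 of these 19 promoters, and in 37.4% of all 32851 promoters and 37.6% of those of tested genes. Such a high share was not particular to this list. CCAAT also stood in 19 of 24 promoters of ER stress genes, 15 of 23 of core clock genes and 9 of 12 of cell cycle genes. Other lists had lower shares, such as 2 of 20 for acute phase proteins. The sterol response element TCACNCCAC stood in 1 of the 19, that of *Hmgcs1*, and in 1.24% of all promoters. Capitals mark these matches, a CCAAT box on the opposite strand reading ATTGG, and none overlaps another searched motif. *Hmgcs1* spans chr13:119690151-119690350 on the plus strand (bases -200 to -1), with the sterol response element at -137 to -129. *Mvd* spans chr8:122443423-122443622 on the minus strand (bases -200 to -1).
Hmgcs1: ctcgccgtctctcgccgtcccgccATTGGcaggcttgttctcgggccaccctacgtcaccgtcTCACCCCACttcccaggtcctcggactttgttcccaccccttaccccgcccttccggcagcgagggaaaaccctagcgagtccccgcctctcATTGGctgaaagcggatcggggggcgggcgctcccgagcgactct
Mvd: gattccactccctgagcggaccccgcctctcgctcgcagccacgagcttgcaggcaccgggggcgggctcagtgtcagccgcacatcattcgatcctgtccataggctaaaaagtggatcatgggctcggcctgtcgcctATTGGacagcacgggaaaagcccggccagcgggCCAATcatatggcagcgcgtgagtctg

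Genes of fatty acid oxidation were also above ND. Of 31 tested genes of oxidation and ketogenesis 7 were called higher than in ND-fed mice and 23 passed the adjusted p-value alone. Among the 31, 2 had an ND mean under 1 FPKM. The median was 0.43 in HYA-treated and 0.38 in control mice. *Cyp4a14*, an omega-hydroxylase and a sensitive PPARα target, was at 144, 71.2 and 63.3 FPKM in ND-fed mice, 278, 342 and 267 FPKM in HYA-treated mice and 183, 257 and 281 FPKM in control mice. HYA-treated mice were above every ND-fed mouse and overlapped control mice. The log2 fold change against ND was 1.75 ± 0.27 (SE, limma, adjusted p = 0.00168), and the interval of HYA against control ran from -0.29 to 0.92. *Vnn1*, a pantetheinase also controlled by PPARα, was higher by 1.66 (limma, adjusted p = 3.12e-08), *Cpt1a*, the entry step of mitochondrial oxidation, by 1.15, *Crat* by 1.10 and the thioesterase *Acot2* by 1.31.

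*Fgf21* (chr7:45613886-45615490), a hepatic hormone that responds to PPARα, to ChREBP and to amino acid stress, was at 0.599, 1.46 and 0.644 FPKM in ND-fed mice. It reached 14.3, 10.4 and 9.87 FPKM in HYA-treated mice, 9.54, 8.07 and 18.3 FPKM in control mice and 8.44, 12.7 and 8.96 FPKM in LA-treated mice. The 3 groups on the high-fat diet overlapped one another and all exceeded ND. On the log2 scale the change of HYA against ND was 2.73 ± 0.28 (SE, limma, adjusted p = 0.000108), and that of HYA against control was 0.01 with a 95% confidence interval of -0.60 to 0.62. Its direction against control was not fixed, since it was -0.01 with median-ratio scaling and -0.10 as TPM. Among 25 genes of ER stress and the amino acid response *Fgf21* was the 1 gene called, *Atf3*, a stress-induced transcription factor, was higher by the adjusted p-value alone at 0.61, and the median of the list was -0.24. *Fgf21* had an ND mean of 0.899 FPKM and so passed the filter through the other groups, which fixes part of its direction. Its promoter (chr7:45615491-45615690, minus strand, bases -200 to -1) is shown because it holds, at -50 to -45, an E-box with the letters CACGTG, a core shared by several factors including ChREBP and clock proteins.
Fgf21: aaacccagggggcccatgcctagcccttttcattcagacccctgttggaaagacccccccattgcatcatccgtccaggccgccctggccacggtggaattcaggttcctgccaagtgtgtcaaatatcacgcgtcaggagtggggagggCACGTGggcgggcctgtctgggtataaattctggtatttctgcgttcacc
The letters CACGTG were found in 7.15% of all promoters, in 10.3% of those of tested genes and in 17 of 123 promoters (13.8%) of genes called higher in HYA-treated than in ND-fed mice. The 123 promoters belonged to 96 of the 141 genes. The capitals do not overlap another searched motif.

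**Figure D2:**
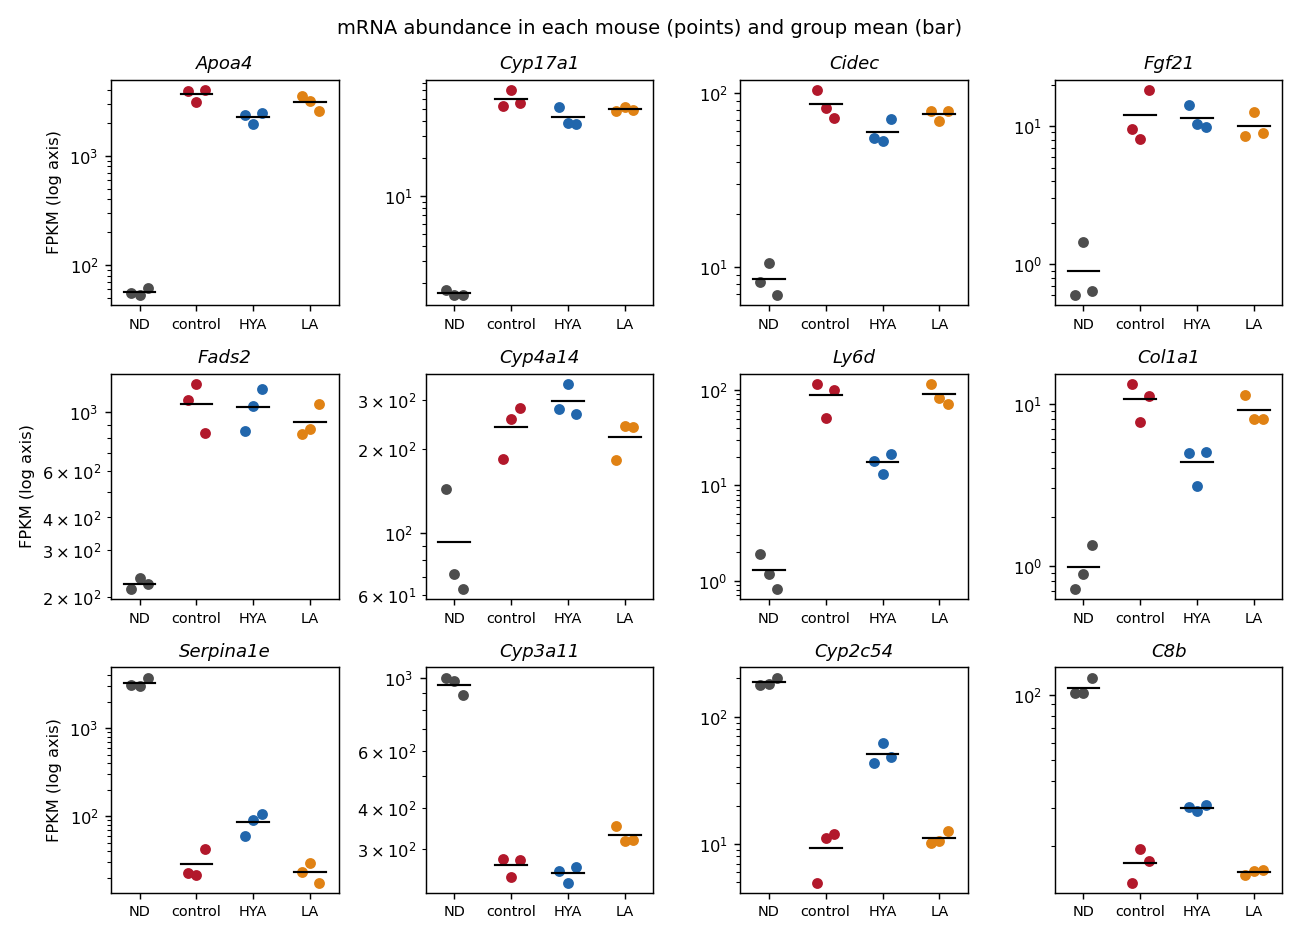
FPKM (log axis) in each mouse (points) and group mean (bar) for 12 genes in ND-fed, control, HYA-treated and LA-treated mice, 3 per group. *Fgf21*, *Fads2* and *Cyp4a14* overlap between HYA-treated and control mice, whereas *Ly6d*, *Col1a1*, *Serpina1e*, *Cyp2c54* and *C8b* lie between ND-fed and control mice without overlap.

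Sex-biased hepatocyte genes differed from ND in both directions. Of 30 tested genes with higher expression in male liver 13 were called lower in HYA-treated than in ND-fed mice and 21 passed the adjusted p-value alone, with a median of -1.15 against -1.95 in control mice. In 27 of the 30 every HYA-treated mouse was below every ND-fed mouse, as in 19.3% of all genes. *Serpina1e* (chr12:103946931-103958975), a serine protease inhibitor of the alpha-1-antitrypsin cluster, was at 3056, 3007 and 3760 FPKM in ND-fed mice and at 59.7, 91.0 and 106 FPKM in HYA-treated mice. It was at 22.5, 21.5 and 43.0 FPKM in control mice and at 23.4, 29.4 and 17.7 FPKM in LA-treated mice. HYA-treated mice lay above all other mice on the high-fat diet and far below all ND-fed mice. The estimated log2 fold change of HYA against ND was -5.28 ± 0.28 (SE, limma, adjusted p = 1.76e-06), and that of HYA against control was 1.56 (limma, adjusted p = 0.0271). Without HYA mouse 2 the latter was 1.49, without HYA mouse 3 it was 1.39 and without control mouse 1 it was 1.42 (limma, adjusted p = 0.121, 0.0741 and 0.106), and with no filter on low values the adjusted p-value was 0.0588. Members of this cluster are near-identical, so that reads may be split between them.

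*Hsd3b5*, a steroid dehydrogenase of male liver, varied among HYA-treated mice. It was at 139, 162 and 182 FPKM in ND-fed mice, at 1.40, 17 and 22.4 FPKM in HYA-treated mice, and at 0.0901, 1.27 and 0.0935 FPKM in control mice. HYA mouse 1 was just above the highest control mouse, and the other 2 were well above it. The 95% confidence interval of the log2 fold change against ND was -5.49 to -2.52 (limma, adjusted p = 0.00275), and the difference from control, 2.85, did not pass the test (limma, adjusted p = 0.0516). Without HYA mouse 1 that difference was 3.88 and passed (limma, adjusted p = 0.00121), and it also passed without control mouse 2, with a pseudocount of 0.1, as TPM, with a mean of at least 5 FPKM and with a replicate block (limma, adjusted p = 0.0338 to 0.0448). *Mup1* followed with 33.2, 43.0 and 47.2 FPKM in ND-fed mice, 4.75, 7.87 and 6.69 FPKM in HYA-treated mice and 0.47, 2.90 and 1.43 FPKM in control mice, a log2 fold change of -2.51 against ND. Also lower than in ND-fed mice were *Serpina4-ps1* (-2.94), *Selenbp2* (-2.68) and the omega-hydroxylase *Cyp4a12b* (-2.20). *Selenbp2* was at 21.3, 13.3 and 18.0 FPKM in HYA-treated and 16.3, 11.2 and 15.7 FPKM in control mice, which overlapped.

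The genes that were no longer called apart from ND by the adjusted p-value were led by major urinary proteins, the pheromone carriers of male urine. The 5 genes with the largest change in control mice whose HYA against ND comparison did not pass the test were *Mup7*, *Mup12*, *Mup14*, *Mup16* and *Mup18*. *Mup18* was at 341, 464 and 543 FPKM in ND-fed mice, 330, 312 and 337 FPKM in HYA-treated mice, and 58.6, 165 and 10.3 FPKM in control mice. HYA-treated mice sat just below the ND range and above every control mouse. Its log2 fold change was -3.20 in control against ND and -0.43 in HYA against ND, with a 95% confidence interval of -2.06 to 1.19 for the latter. The other 4 had log2 fold changes against ND of -1.84 to -1.10 in HYA-treated mice (limma, adjusted p = 0.0956 to 0.449) and of -4.52 to -3.51 in control mice. In each of the 5 genes every HYA-treated mouse was below every ND-fed mouse, as was the case for 19.3% of all genes. A fit of ND-fed and HYA-treated mice alone called *Mup7*, *Mup12*, *Mup14* and *Mup16* lower (limma, adjusted p = 0.000764 to 0.0261). The missing call in the fit of all mice therefore does not show a return to the ND level. These paralogues are nearly identical, and their individual values are uncertain.

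Of 30 genes with higher expression in female liver 14 reached the mean of 1 FPKM and were tested, and 3 of these had an ND mean under 1 FPKM and so passed that filter through the other groups, which fixes part of their direction. Among the 14, 12 were higher in HYA-treated than in ND-fed mice by the adjusted p-value and 6 were called, with a median of 1.02 against 1.31 in control mice. *Cyp17a1* (chr19:46667165-46672974), a steroid hydroxylase, was at 1.76, 1.63 and 1.62 FPKM in ND-fed mice, 51.5, 38.1 and 38.0 FPKM in HYA-treated mice, 52.4, 70.5 and 55.8 FPKM in control mice and 48.3, 51.5 and 48.4 FPKM in LA-treated mice. HYA-treated mice were far above every ND-fed mouse and below every control mouse. Its log2 fold change against ND was 4.01 ± 0.12 (SE, limma, adjusted p = 2.72e-08), and that against control was -0.48 (limma, adjusted p = 0.0689). *Cyp2a4* varied more, with 1.08, 0.29 and 0.416 FPKM in ND-fed mice, 4.18, 9.97 and 14.6 FPKM in HYA-treated mice and 37.0, 50.1 and 16.4 FPKM in control mice, a log2 fold change of 2.62 against ND (limma, adjusted p = 0.00545). With voom on recovered fragments its adjusted p-value was 0.12. The peroxisomal fatty acid transporter *Abcd2* was called at 1.77 and the xenobiotic hydroxylase *Cyp2b9* at 2.19.

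Drug-metabolising cytochromes P450 were lower as a group. Of 28 tested genes 9 were called lower and 1 higher, 15 were lower by the adjusted p-value alone, and the median was -0.44 in HYA-treated and -0.77 in control mice. Among the 28, 1 had an ND mean under 1 FPKM. *Cyp3a11* (chr5:145854426-145879964), the main steroid and drug oxidase of mouse liver, was at 1006, 980 and 887 FPKM in ND-fed mice, 257, 236 and 264 FPKM in HYA-treated mice, 279, 246 and 277 FPKM in control mice and 353, 316 and 320 FPKM in LA-treated mice. HYA-treated and control mice overlapped, and both lay below LA-treated and ND-fed mice. The log2 fold change against ND was -1.92 ± 0.08 (SE, limma, adjusted p = 1.25e-07), with -0.08 against control and a 95% confidence interval of -0.25 to 0.09.

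*Cyp2c54*, in contrast, was at 177, 182 and 203 FPKM in ND-fed mice, 43.1, 62.2 and 48.0 FPKM in HYA-treated mice, 4.97, 11 and 12 FPKM in control mice and 10.2, 10.6 and 12.7 FPKM in LA-treated mice. HYA-treated mice formed a level of their own between ND and the other groups. On the log2 scale the change of HYA was -1.87 against ND, 2.40 against control and 2.09 against LA (limma, adjusted p = 0.000626, 0.0129 and 0.0183). *Cyp2c50*, a neighbouring epoxygenase, was at -1.15 against ND and 1.38 against control (limma, adjusted p = 0.00434 and 0.0168). Without HYA mouse 2 the difference from control was 2.25 for *Cyp2c54* and 1.31 for *Cyp2c50* (limma, adjusted p = 0.0671 and 0.0856). *Cyp2c29*, *Cyp2c37*, *Cyp2c23*, *Cyp2c70* and *Cyp2c55* were also called lower than in ND-fed mice, at -1.65, -1.51, -1.21, -1.61 and -1.83, and *Cyp2c38* was called higher at 1.13. *Cyp2e1*, the ethanol-inducible enzyme, was at -0.06 and did not pass the test (limma, adjusted p = 0.858). The Cyp2c genes are close paralogues, so part of their reads may be shared.

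Among 8 motifs searched, the HNF4 element CAAAGTCCA, bound by a nuclear receptor that maintains hepatocyte identity, is shown for *Cyp3a11* (chr5:145879954-145880054, minus strand, bases -200 to -100) and *Cyp2c70* (chr19:40187334-40187486, minus strand, bases -200 to -48). It stood in 3 of 48 promoters (6.25%) of genes called lower in HYA-treated than in ND-fed mice, in 0.591% of promoters of tested genes and in 0.475% of all promoters. The 48 promoters belonged to 42 of the 68 genes. Capitals mark the match, at -109 to -101 in *Cyp3a11* and at -64 to -56 in *Cyp2c70*, and neither overlaps another searched motif. In *Cyp3a11* the match precedes the RefSeq start but lies within the listed span of the gene, which begins at 145879964 on the minus strand. It is therefore not upstream of that span. A match of these letters is a description of the sequence and does not show binding.
Cyp3a11: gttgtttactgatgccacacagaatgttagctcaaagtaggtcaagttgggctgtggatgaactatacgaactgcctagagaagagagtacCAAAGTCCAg
Cyp2c70: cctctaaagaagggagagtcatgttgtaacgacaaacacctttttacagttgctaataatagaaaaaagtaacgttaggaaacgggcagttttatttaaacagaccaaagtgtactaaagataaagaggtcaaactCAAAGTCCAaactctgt

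Secreted and metabolic functions of hepatocytes were lower to a smaller degree. Of 41 complement and coagulation genes 20 were lower by the adjusted p-value and 2 called, with a median of -0.30 against -0.51 in control mice. *C8b*, a subunit of the membrane attack complex, was at 102, 102 and 120 FPKM in ND-fed mice, 30.1, 28.9 and 30.9 FPKM in HYA-treated mice and 13.5, 19.3 and 17 FPKM in control mice. The groups did not overlap, and the log2 fold change of HYA was -1.81 against ND, 0.83 against control and 0.94 against LA (limma, adjusted p = 3.38e-06, 0.0141 and 0.0183). *C4a* was called at -1.37, and *C8a* and *C3* were at -0.89 and -0.77.

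Of 31 genes of the urea cycle and amino acid catabolism 9 were lower by the adjusted p-value and 3 called, with a median of -0.30 against -0.59 in control mice. *Hal*, which begins histidine breakdown, was at 105, 110 and 110 FPKM in ND-fed mice, 49, 47.2 and 51.5 FPKM in HYA-treated mice and 22.9, 39.0 and 28.8 FPKM in control mice, a log2 fold change of -1.12 against ND (limma, adjusted p = 0.00159). *Cps1*, the first enzyme of the urea cycle, was at -1.06.

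Bile acid genes had 1 of 22 called, 5 lower and 3 higher by the adjusted p-value, and a median of -0.18 against -0.58 in control mice. Among the 22, 1 had an ND mean under 1 FPKM. *Cyp7b1*, of the alternative pathway of bile acid synthesis, was at 80.1, 107 and 115 FPKM in ND-fed mice, 39.0, 44.1 and 47.4 FPKM in HYA-treated mice and 14.9, 26.3 and 23.3 FPKM in control mice. Its log2 fold change was -1.18 against ND and 1.01 against control (limma, adjusted p = 0.00314 and 0.0348). The call against control was lost without HYA mouse 1, 2 or 3 (limma, adjusted p = 0.0610, 0.140 and 0.0934), without control mouse 1 or 3 (0.106 and 0.0674) and without ND mouse 2 (0.0518). It was also lost with no filter on low values (0.0754), and the difference fell short of 1 with median-ratio scaling (0.99) and as TPM (0.91). *Cyp8b1*, which sets the share of cholic acid, was higher than in ND-fed mice by 0.93 (limma, adjusted p = 0.00709).

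Conjugation and antioxidant enzymes went both ways, with 9 of 36 lower and 7 higher by the adjusted p-value, 2 called lower and a median of -0.13. The glutathione transferase *Gsta2* was at 69.0, 64.1 and 51.2 FPKM in ND-fed mice, 11.9, 10.4 and 14.4 FPKM in HYA-treated mice and 13.6, 16.0 and 14.4 FPKM in control mice. HYA and control overlapped, and the log2 fold change against ND was -2.24 ± 0.19 (SE, limma, adjusted p = 2.87e-05). *Gstp1* was called at -1.71.

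**Figure D3:**
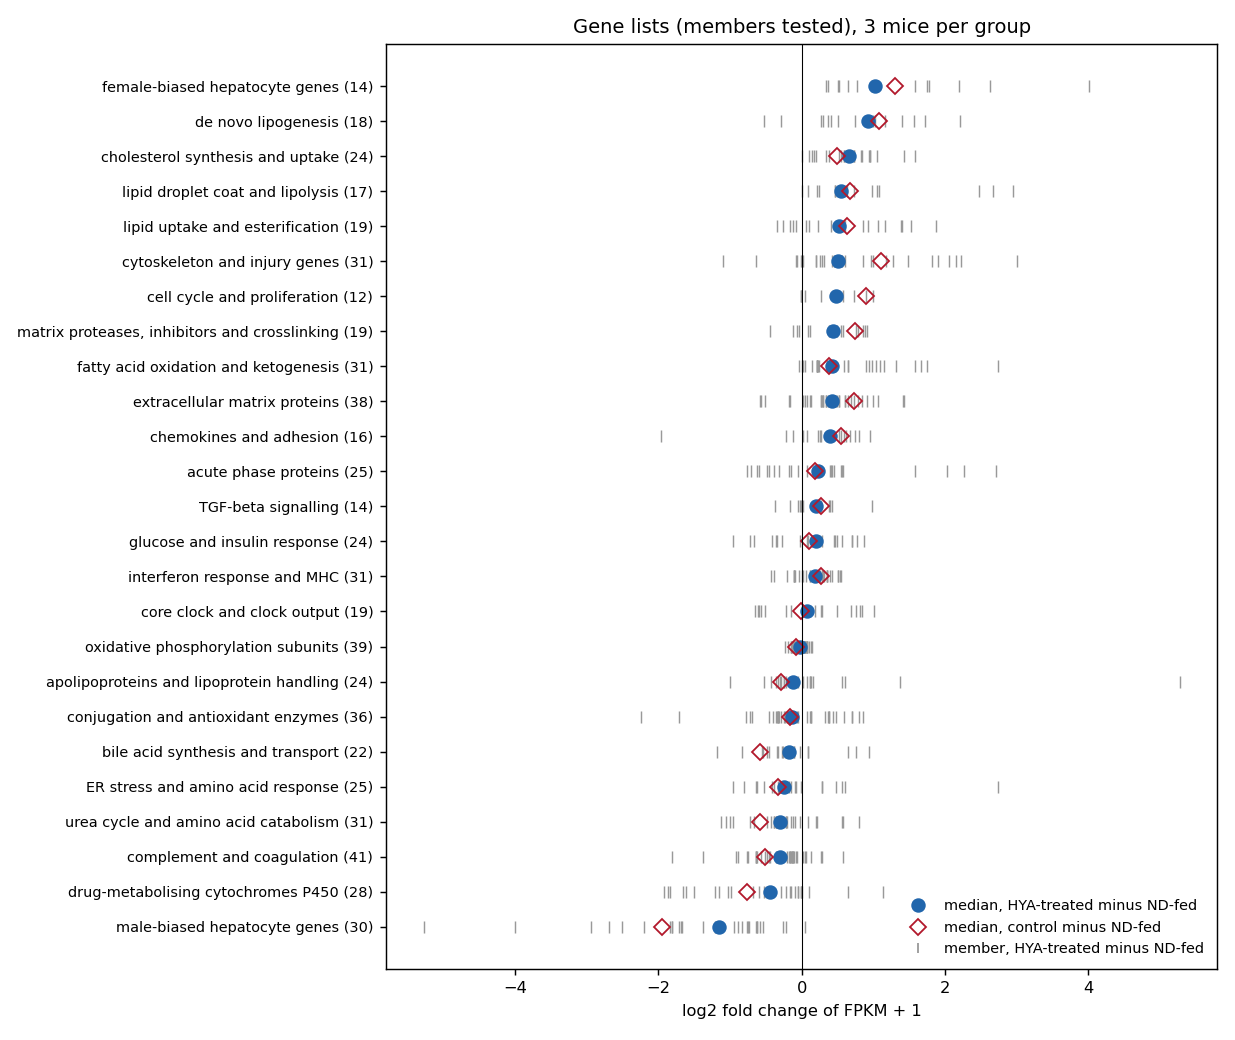
Log2 fold change of FPKM + 1 in HYA-treated minus ND-fed mice for each tested member (grey ticks) of 25 gene lists, ordered by the list median (blue circle), with the median of control minus ND-fed mice (open red diamond). The medians run from -1.15 for male-biased to 1.02 for female-biased genes, and the circle lies nearer to 0 than the diamond except for cholesterol synthesis, fatty acid oxidation, acute phase proteins, glucose and insulin response and the core clock.

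Extracellular matrix genes remained above ND at a lower level than in control mice. Of 54 genes 38 were tested, 9 of them with an ND mean under 1 FPKM. Of the 38, 20 were higher by the adjusted p-value, 3 called and 1 lower, with a median of 0.42 against 0.73 in control mice. *Col1a1* (chr11:94936224-94953042), the alpha chain of fibrillar type I collagen, was at 0.720, 0.882 and 1.33 FPKM in ND-fed mice, 4.94, 3.08 and 5.01 FPKM in HYA-treated mice, 13.2, 7.72 and 11.1 FPKM in control mice and 11.2, 8.04 and 7.98 FPKM in LA-treated mice. Every HYA-treated mouse lay above every ND-fed mouse and below every control and LA-treated mouse. The estimated log2 fold change of HYA was 1.42 ± 0.21 against ND (SE, limma, adjusted p = 0.00124) and -1.12 against control (limma, adjusted p = 0.0293). Leaving out HYA mouse 1, 2 or 3 raised the latter adjusted p-value to 0.0529, 0.124 and 0.0615, and leaving out control mouse 1 or 3 raised it to 0.121 and 0.0755, and no filter on low values to 0.0659. *Col3a1* averaged 2.97 FPKM in ND-fed, 9.60 FPKM in HYA-treated and 18.0 FPKM in control mice, and with *Col1a2* it was called higher than in ND-fed mice, at 1.42 and 1.06. *Spp1*, osteopontin, was at 0.99 (limma, adjusted p = 0.0338).

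Matrix proteases, their inhibitors and crosslinking enzymes had 11 of 19 genes higher by the adjusted p-value and a median of 0.44 against 0.75 in control mice. None was called with limma on log2(FPKM + 1), 13 were higher at an unadjusted p-value under 0.05, and 5 were called with voom on recovered fragments. Among the 19 genes 7 had an ND mean under 1 FPKM, and 7 others of the list were not tested. *Timp1*, the inhibitor of matrix metalloproteases, averaged 0.0427 FPKM in ND-fed, 0.996 FPKM in HYA-treated and 3.27 FPKM in control mice and was at 0.88 (limma, adjusted p = 0.0563). Of TGF-β signalling genes 14 were tested, 1 of them with an ND mean under 1 FPKM, and 5 were below the filter. Of the 14, 3 were higher and 1 lower by the adjusted p-value, among them *Tgfb1* at 0.39 (limma, adjusted p = 0.0312), with a median of 0.20.

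Genes of the cytoskeleton and of epithelial injury held 9 called members of 31, with 15 higher by the adjusted p-value and a median of 0.50 against 1.11 in control mice, 5 of the 31 having an ND mean under 1 FPKM. *Ly6d* (chr15:74762056-74763620), a membrane-anchored protein of squamous and lymphoid cells, was at 1.91, 1.18 and 0.823 FPKM in ND-fed mice, 18.2, 13.1 and 21.4 FPKM in HYA-treated mice, 116, 51.0 and 99.3 FPKM in control mice and 115, 83.3 and 71.7 FPKM in LA-treated mice. HYA-treated mice were above all ND-fed mice and below all other mice on the high-fat diet. Its log2 fold change of HYA was 3.01 ± 0.31 against ND (SE, limma, adjusted p = 0.000109), -2.22 against control and -2.29 against LA (limma, adjusted p = 0.0143 and 0.0268).

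*S100a11*, a calcium-binding protein, was at 5.35, 4.31 and 4.90 FPKM in ND-fed mice, 26.9, 22.6 and 25.3 FPKM in HYA-treated mice and 78.4, 48.4 and 61.7 FPKM in control mice, with log2 fold changes of 2.15 against ND and -1.28 against control (limma, adjusted p = 1.23e-05 and 0.0129). *Sprr1a*, an envelope protein of injured epithelia, was near absent in ND-fed mice, with 3 fragments over the 3 mice, and was at 3.39, 3.35 and 5.62 FPKM in HYA-treated and 30.5, 10.2 and 24.9 FPKM in control mice. Its log2 difference from control was -2.06 (limma, adjusted p = 0.0168), and that from ND was 2.23 (limma, adjusted p = 0.000914, and 0.0675 with voom on recovered fragments). Without HYA mouse 2 the differences from control of *Ly6d*, *S100a11* and *Sprr1a* were -2.03, -1.21 and -1.95 (limma, adjusted p = 0.0751, 0.0671 and 0.0856), and without control mouse 1 that of *Sprr1a* was -1.76 (limma, adjusted p = 0.0571). *Tubb2b*, a tubulin, was the exception, with 5.85, 3.32 and 3.77 FPKM in HYA-treated and 5.90, 2.65 and 4.04 FPKM in control mice, against 0.124, 0.0823 and 0.606 FPKM in ND-fed mice, a log2 fold change of 2.06 against ND. *Anxa2*, *Krt23* and *Gdf15* were called at 1.82, 1.91 and 1.49.

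In the direct comparison of HYA with control, 18 genes were called higher (0.162%) and 16 lower (0.144%), and 174 were higher and 136 lower by the adjusted p-value alone. By the adjusted p-value alone, 14 of the 30 male-biased genes, 10 of the 41 complement and coagulation genes and 7 of the 28 cytochromes P450 were higher than in control mice, and 11 of the 31 cytoskeleton and injury genes and 7 of the 38 matrix genes were lower. This comparison depended on single mice. Leaving out HYA mouse 2 left 0 genes past the adjusted p-value of limma and 1473 with an unadjusted p-value under 0.05, leaving out control mouse 1 left 5 higher and 5 lower, and leaving out control mouse 2 gave 36 higher and 32 lower. Over all alternatives the adjusted p-value of HYA against control rose to at most 0.1345 for *Apoa4*, 0.161 for *Mogat1*, 0.0671 for *C8b* and 0.0680 for *Ndufa12* (limma). Differences between HYA-treated and LA-treated mice were not recomputed without single mice.

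Markers of stellate cells and of recruited macrophages moved with the matrix and injury genes, and both lists share members with the matrix list. Among 19 stellate cell and myofibroblast markers 8 were higher in HYA-treated than in ND-fed mice by the adjusted p-value, and their summed level was 92.1 to 114 FPKM in ND-fed, 139 to 152 FPKM in HYA-treated, 153 to 180 FPKM in control and 161 to 190 FPKM in LA-treated mice. Of 20 markers of recruited and lipid-associated macrophages 14 were tested and 9 were higher, but 4 of the 14, among them *Gpnmb*, *Mmp12* and *Itgax*, had an ND mean under 1 FPKM and so passed the filter through the mice on the high-fat diet. The 20 markers summed to 308 to 342 FPKM in ND-fed, 393 to 432 FPKM in HYA-treated and 507 to 640 FPKM in control mice. A few genes dominate this sum. *Ctsb*, *Ctsd* and *Lyz2* were at 117, 82.5 and 76.6 of the 341 FPKM in ND mouse 1, where *Trem2* and *Gpnmb* were at 0.115 and 0.0175 FPKM. In control mouse 1 *Spp1* was the largest, at 166 of 640 FPKM. Of 14 cholangiocyte markers 6 were tested, 2 of them with an ND mean under 1 FPKM, and *Spp1* was higher. The 14 markers summed to 27.6 to 38.1 FPKM in ND-fed, 48.4 to 60.9 FPKM in HYA-treated and 89.4 to 187 FPKM in control mice. For these 3 lists the HYA-treated mice lay above the ND-fed and below the control mice without overlap. For cholangiocytes this rested on *Spp1*, without which the sums were 11.6 to 13.8 FPKM in ND-fed, 10.7 to 12.8 FPKM in HYA-treated and 15.2 to 21.3 FPKM in control mice, so that HYA-treated and ND-fed mice overlapped.

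Resident Kupffer cell markers summed to 279 to 416 FPKM in ND-fed and 293 to 408 FPKM in HYA-treated mice, ranges that overlapped. Of 14 tested markers *Clec1b* was higher by the adjusted p-value at 0.30, and 3 had every HYA-treated mouse below every ND-fed mouse without passing it. That count is near the share over all genes, 19.3%. The 3 were the scavenger receptors *Marco* and *Cd163* and the phosphatidylserine receptor *Timd4*, at -1.58, -0.57 and -0.66 (limma, adjusted p = 0.0607, 0.0867 and 0.0850). *Marco* was at 33.4, 15.7 and 21.1 FPKM in ND-fed, 9.89, 10.8 and 2.71 FPKM in HYA-treated and 3.72, 11.7 and 2.46 FPKM in control mice. Among 15 tested sinusoidal endothelial markers 3 were higher, including *Lyve1*, called at 1.16, and the sums were 131 to 161 FPKM in ND-fed and 170 to 179 FPKM in HYA-treated mice. Hepatocyte markers summed to 46216 to 48047 FPKM in ND-fed, 39451 to 41338 FPKM in HYA-treated and 30529 to 35140 FPKM in control mice, with 7 of 14 lower and *Cps1* called. Defining markers such as *Alb*, *Lrat*, *Clec4f* and *Krt19* were above 0, and none of the markers in these 6 lists was at 0 in all mice. The part of cell composition in the results above was not tested. Lymphocyte and neutrophil markers were too low for a list, with 1 T and NK cell, 2 B and plasma cell and 2 neutrophil genes tested. The immunoglobulin heavy chain *Ighm* was called higher at 1.37. The other tested B and plasma cell gene, *Igkc*, had a log2 fold change below 0. It was at 12.9, 10.3 and 14.2 FPKM in ND-fed and 13.8, 16.8 and 5.47 FPKM in HYA-treated mice, which overlapped. Of 12 pancreatic acinar markers 7 were at 0 in all mice, and skeletal muscle markers summed to 0.759 to 1.14 FPKM in ND-fed and 0.547 to 0.981 FPKM in HYA-treated mice. Some genes stand in more than 1 list, such as *Spp1* among the matrix, macrophage and cholangiocyte genes and *Lum* among the matrix and stellate genes.

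**Figure D4:**
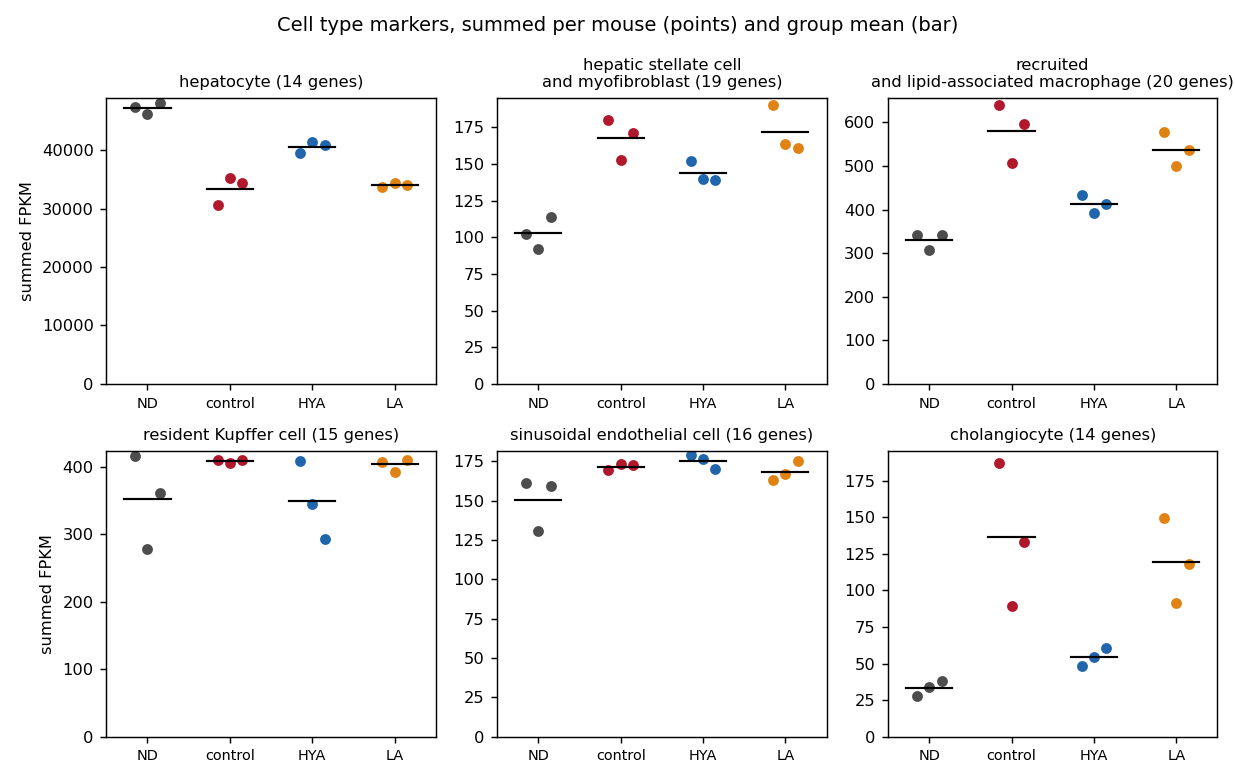
Summed FPKM of the markers of 6 cell types in each mouse (points) and group mean (bar), 3 mice per group, y axes starting at 0. Stellate cell, recruited macrophage and, through *Spp1*, cholangiocyte markers lie between ND-fed and control mice in HYA-treated mice, whereas resident Kupffer cell markers overlap between HYA-treated and ND-fed mice.

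Acute phase and inflammatory genes were split. Of 25 acute phase genes 4 were called higher, 8 were higher and 6 lower by the adjusted p-value, and the median was 0.23 against 0.19 in control mice. *Lcn2*, a siderophore-binding protein, was at 0.651, 1.25 and 1.17 FPKM in ND-fed mice, 13.6, 7.38 and 17.2 FPKM in HYA-treated mice and 25.9, 16.8 and 34.0 FPKM in control mice, where 1 HYA-treated mouse overlapped control. The log2 fold change was 2.71 ± 0.33 against ND (SE, limma, adjusted p = 0.000354) and -0.97 against control (limma, adjusted p = 0.139). *Saa1*, serum amyloid A, was at 51.6, 49.7 and 58.4 FPKM in HYA-treated and 58.5, 44.5 and 66.0 FPKM in control mice against 12.8, 15.1 and 9.63 FPKM in ND-fed mice, a log2 fold change of 2.02 against ND. *Saa2* and *Orm2* were called at 2.27 and 1.58, whereas the protease inhibitor *Serpina3k* and the fibrinogen chains *Fga* and *Fgb* were lower, at -0.77, -0.59 and -0.63. Of 27 chemokine and adhesion genes 16 were tested, 4 of them with an ND mean under 1 FPKM, so that the filter fixes part of their direction. Of the 16, 3 were higher by the adjusted p-value, with a median of 0.39. None of these was called, whereas voom called 2 higher and TPM, which let more genes of the table be tested, 6. The vascular adhesion molecule *Vcam1* was at 0.80 (limma, adjusted p = 0.00103). The 1 gene called was lower, *Cxcl13*, the B cell chemokine, at 8.41, 4.49 and 5.76 FPKM in ND-fed mice, 0.942, 1.82 and 0.0704 FPKM in HYA-treated mice and 0, 0.977 and 0.420 FPKM in control mice, a log2 fold change of -1.97 against ND (limma, adjusted p = 0.00309).

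Of 25 cell cycle genes 12 were tested, 5 of them with an ND mean under 1 FPKM. *Ccnd1*, a G1 cyclin, *Gadd45a*, a damage-response gene, and *Rrm2*, a subunit of ribonucleotide reductase, were higher by the adjusted p-value, at 0.89, 0.72 and 0.45. In 8 of the 12 every HYA-treated mouse was above every ND-fed mouse, as in 16.6% of all genes. The filter fixes part of this direction. The median was 0.47 against 0.90 in control mice, and none was called with limma, where 5 were higher at an unadjusted p-value under 0.05, or with voom.

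Several other lists had few genes past the test. Of 39 oxidative phosphorylation subunits none passed the adjusted p-value of limma, 2 were higher and 1 lower at an unadjusted p-value under 0.05, voom called none, and the median was -0.03. The list left out *Ndufa12*, a complex I subunit that was called higher at 1.04. The sign of that median depended on scaling, being 0.08 as TPM. Of 19 core clock and output genes limma called none, 2 were lower at an unadjusted p-value under 0.05, voom called none, and the median was 0.07. Interferon and MHC genes had 2 of 31 higher by the adjusted p-value and a median of 0.19, with 1 of the 31 at an ND mean under 1 FPKM. Of 24 genes of glucose and insulin response 4 were higher and 3 lower by the adjusted p-value, *Igfals*, the carrier of circulating IGF1, being at -0.96, with a median of 0.20.

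Large differences were also seen outside these groups. *Rgs16*, which shortens G protein signalling, was at 0.681, 1.75 and 8.44 FPKM in ND-fed mice, 58.3, 75.1 and 112 FPKM in HYA-treated mice and 89.0, 88.4 and 33.0 FPKM in control mice. It varied widely within each group, and the log2 fold change against ND was 4.50 ± 0.58 (SE, limma, adjusted p = 0.000558). *Mfsd2a*, a carrier of lysophosphatidylcholine with omega-3 fatty acids, was at 10.4, 10.9 and 5.64 FPKM in ND-fed mice, 72.1, 87.4 and 140 FPKM in HYA-treated mice and 104, 138 and 64.1 FPKM in control mice. HYA and control overlapped for both genes, and *Mfsd2a* was higher than in ND-fed mice by 3.33 (limma, adjusted p = 7.55e-05). *Adam11*, a catalytically inactive member of the ADAM family, was lowest in HYA-treated mice, at 0.955, 0.885 and 1.14 FPKM, below the 1.56 to 2.03 FPKM of control mice and the ND mean of 9.54 FPKM. On the log2 scale the change was -2.40 ± 0.14 against ND (SE, limma, adjusted p = 2.69e-06) and -0.46 against control (limma, adjusted p = 0.108).

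*Ndufa12* (chr10:94198720-94221443), an accessory subunit of respiratory complex I, was the 1 gene called in HYA against ND whose difference between control and ND was under 0.5 on the log2 scale. It was at 8.96, 8.35 and 7.34 FPKM in ND-fed mice, 20.7, 16.4 and 17 FPKM in HYA-treated mice, 11.5, 9.90 and 8.67 FPKM in control mice and 10.5, 8.97 and 8.61 FPKM in LA-treated mice. All 3 HYA-treated mice were above the other 9 mice. The estimated log2 fold change of HYA was 1.04 ± 0.12 against ND (SE, limma, adjusted p = 0.000234), 0.79 against control and 0.88 against LA (limma, adjusted p = 0.0168 and 0.0268), and that of control against ND was 0.26 (limma, adjusted p = 0.116). Without HYA mouse 1 or ND mouse 3 the difference from ND was 0.95 and 0.97, below the fold threshold.

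**Figure D5:**
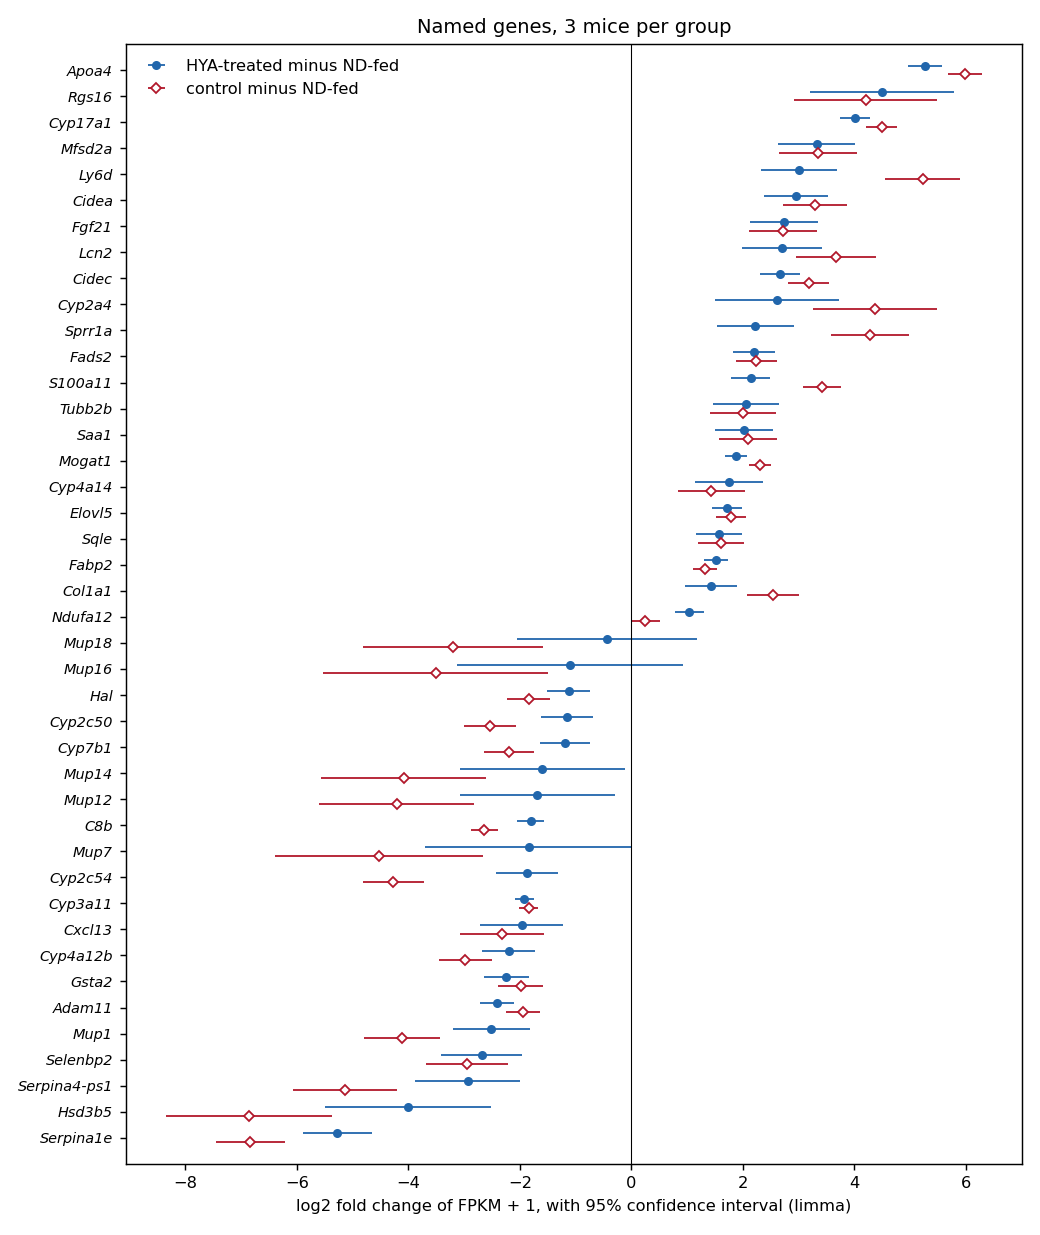
Log2 fold change of FPKM + 1 against ND-fed mice with its 95% confidence interval (limma) in HYA-treated (blue circles) and control mice (open red diamonds) for 42 genes, 3 mice per group. Intervals of HYA-treated mice coincide with those of control mice for *Fgf21*, *Fads2*, *Sqle* and *Cyp3a11*, lie nearer to 0 for *Ly6d*, *S100a11*, *Col1a1* and *Cyp2c54*, and include 0 for *Mup7*, *Mup16* and *Mup18*.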

How the data were processed

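Liver RNA of 12 mice was sequenced by the authors as paired reads of 150 bases. According to the submitters' processing notes, reads were filtered with fastp, aligned with HISAT2 2.0.5 to GRCm38 and counted per gene with featureCounts 1.5.0-p3. The authors deposited FPKM per gene and mouse, with coordinates and lengths. The methods of the study speak of TPM, but the columns sum to 342146 to 429286 rather than to 1 fixed total, and they were treated as FPKM. Of 54409 gene identifiers shared with GENCODE M21, 53499 had identical coordinates. Every value was a whole number of fragments after division by the step of its column and gene, which gave the depth of each mouse, and a count of 3 fragments equals 0.0607 to 0.0944 FPKM for a gene 2 kb long, a limit that covers counting error only. The library scaling of the deposited FPKM relative to these fragments was 0.917 to 0.953 in ND-fed, 0.980 to 1.01 in HYA-treated, 1.03 to 1.10 in control and 1.05 to 1.06 in LA-treated mice, and it was kept. Mitochondrial genes took 5.03% to 5.60% of fragments, and mice of a group correlated at 0.983 to 0.990 across genes.

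Groups were taken from the sample labels. In R 4.3.3, limma 3.58.1 (empirical Bayes with trend, two-sided) was fitted to log2(FPKM + 1), with a pseudocount of 1, on all 12 mice with 1 mean per group, for genes averaging 1 FPKM or more. A run on simulated data used a lower fold threshold and 1 fixed spread, so it did not test the calling rule given here. A gene was called when its adjusted p-value (by the method of Benjamini and Hochberg) fell below 0.05 and its log2 fold change exceeded 1 in size, limits that the study also used. The 25 pathway and 13 marker lists are described by counts and medians, without a set test. Alternatives were median-ratio scaling, TPM, a pseudocount of 0.1, other filters, only ND-fed and HYA-treated mice, a replicate block and voom on the recovered fragments. Each ND-fed, HYA-treated and control mouse was also left out in turn, but no LA-treated mouse. Leaving out control mice and TPM on the genes tested as FPKM were chosen after seeing the data. Promoters are those of RefSeq, and printed stretches end where exons of GENCODE M21 begin, to within 30 bases.

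The members and lists were chosen with earlier results of these data known. Genes named were the 8 largest increases and decreases with ranges that did not overlap, the called member of each list with the largest change (2 where at least 5 were called), and up to 5 genes each that were also called against control, were nearest to control with a log2 fold change above 2, were called in control but not past the adjusted p-value in HYA against ND, or differed by under 0.5 between control and ND. Clone names were left out. Other list members were named after their values were seen. Some genes are not reported here.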

Additional observations from a re-analysis of the deposited data

How the results depend on the processing

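The comparison of HYA with ND called 141 genes higher and 68 lower. Instead of these, a pseudocount of 0.1 gave 237 and 88, TPM 274 and 77 (238 and 64 on the same 11083 genes), voom on recovered fragments 230 and 95, a mean of at least 5 FPKM 98 and 45, and the adjusted p-value alone 966 and 870. Median-ratio scaling, no filter on low values and a fit of ND-fed and HYA-treated mice alone stayed within 1.5 times both counts, as did leaving out each of these mice, with 141 to 150 higher and 63 to 76 lower. Of the 141 genes, TPM called 141 and voom 136, and of the 68 genes, 61 and 68. Same-numbered ND-fed and HYA-treated mice correlated at 0.13, 0.0065 and -0.03 in their deviations from the group means. These 3 values are too few to exclude a pairing by number. Over other pairs of groups, same-numbered mice ranged from -0.40 (control and LA mouse 3) to 0.29 (HYA and LA mouse 3). The replicate block gave 141 higher and 70 lower. Over the genes called higher in control mice, the median of HYA against ND (1.04) was 1.14 with a mean of at least 5 FPKM and 0.82 as TPM, and 0.965 to 1.09 without single mice. Over those called lower (-0.89) it was -0.94 with median-ratio scaling, -0.92 with no filter, -0.93 with a pseudocount of 0.1, -1.04 as TPM and -0.95 with voom, and -1.02 to -0.79 without single mice, the extremes without control mouse 1 and control mouse 2, which were left out as a choice made after seeing the data.

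None of the 42 genes recomputed under each alternative changed direction in HYA against ND, and other genes named were not recomputed one by one. In HYA against control, small differences changed sign. *Fgf21* was at -0.0059 with median-ratio scaling and -0.10 as TPM, and *Tubb2b* at -0.0541 as TPM. Without single mice the log2 difference from control ranged from -0.15 to 0.0314 for *Elovl5*, -0.21 to 0.10 for *Fads2*, -0.20 to 0.34 for *Fgf21*, -0.32 to 0.23 for *Mfsd2a*, -0.17 to 0.53 for *Rgs16*, -0.22 to 0.0568 for *Saa1*, -0.17 to 0.15 for *Sqle* and -0.18 to 0.28 for *Tubb2b*. Of the list counts 60 moved by over 1.5 times. TPM, with 13588 genes tested, and voom called 9 and 6 macrophage markers, 5 and 5 matrix proteases, 6 and 2 chemokines and 2 and 1 TGF-β genes higher where none was called, 7 and 7 matrix genes in place of 3, and 6 and 5 genes of cholesterol synthesis in place of 3. The causes were not tested. At this depth, genes near 1 FPKM rest on few fragments.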
